A study of Argopecten irradians concentricus with 9 samples.

Results

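Bay scallops (Argopecten irradians concentricus) were held in warm or cold water and the RNA of their adductor muscle was sequenced. The comparison described here sets the muscle at high temperature against the muscle at low temperature, with the room temperature muscle placed beside both. It covers every gene model of the deposited table with a mean FPKM (fragments counted, scaled to the length of the gene model and to a divisor set for each library) of at least 1 over the 6 high and low temperature libraries. That rule took in 8671 of 28864 gene models, or 30% of the table, which held 99.1% of the reads of those libraries. The last model inside the limit had a mean of 1.00008 FPKM and the first outside it 0.9999976. Of the 20193 models left out, 7370 were listed at 0 in all 6 libraries.

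Each of the 3 groups had 3 libraries: high temperature, low temperature and the room temperature controls. The groups differed by water temperature alone as far as the labels go, and all animals were year-old scallops of the same subspecies, given no other agent. The labels state neither degrees nor duration, so "graded" below refers to the order low, room, high and not to a number of degrees. RNA was isolated per tank, but no label ties a library to its own tank or animal. The p-values therefore measure only the spread between these libraries, which may be technical. In bulk muscle, fewer cells of a type and less RNA per cell cannot be told apart.

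Scallops are ectotherms, so the water sets the temperature of their muscle proteins. In animal cells, warming misfolds proteins, and heat shock factor then switches on chaperones: HSP70 proteins, which hold unfolded chains, and DnaJ proteins, which deliver those chains and drive the HSP70 cycle. Stress is also met by transcription factors of the immediate-early and bZIP (basic leucine zipper) kinds, whose genes are switched on fast and whose products bind DNA as single proteins or as pairs. Proteins that cannot be refolded go to the proteasome or, through receptors such as sequestosome-1, to autophagy. The adductor closes the shell and carries both fast striated and slow smooth fibres. Protein names below are the table's best matches in other species, and state likeness only.

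The libraries held 11716140 to 16229040 assigned reads, and the 50 most abundant gene models took 50.3% to 62.5% of them. Muscle markers were present in every library: summed FPKM was 2254 to 5436 for striated muscle myosin heavy chain, 2193 to 6459.6 for paramyosin and 12877 to 46141 for adductor muscle actin. The single model named twitchin reached 0.166 FPKM at most, and 0 models carried the name tropomyosin. Markers of other tissues were summed over all models of each list in the table, tested or not. The sum of 107 cilia models (18 tested) was 66.7 to 75.9 FPKM at high and 64.6 to 78.5 at low temperature. That of 32 haemocyte (blood cell) models (11 tested) was 356 to 900.3 and 219 to 769.6. Digestive gland markers (66 models, 8 tested) summed to 23.7 to 46.3 and 18.2 to 26 FPKM, and gonad markers (52, 12 tested) to 131 to 152 and 83.4 to 221. Nerve markers (56, 20 tested) summed to between 111 and 138 at high and at least 131 at low temperature. Shell and mantle markers (65, 5 tested) summed to 37.2 to 45.1 and 34.9 to 46.2. High and low libraries overlapped in each of these sums, and of all table models in these 6 lists 11, 7, 19, 10, 1 and 23 were at 0 in all 9 libraries, in the order named.

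Replicate 3 of both extremes stood apart. On the leading principal component of the 6 libraries, with 33.97% of the variance, high temperature replicate 3 lay at 53.4 and the other 5 between -29.5 and 1.33. On the next, with 22.99%, low temperature replicate 3 lay at -43.4. High temperature replicate 3 was the highest or the lowest of the 6 libraries in 48.9% of the tested gene models, and low temperature replicate 3 in 37.6%. The divisor behind the deposited FPKM, which is not the total of assigned reads, was 9062875 in high temperature replicate 3, which had 13932572 assigned reads. It was 19836069 in replicate 1, which had 14121401. The part of these libraries and divisors in the results was not tested beyond leaving libraries out, weighting libraries and using other scalings.

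Between the extremes most gene models did not pass the test, and those that did were mostly higher at high temperature. The limma test on log2(FPKM + 1) called 13 gene models higher (0.15% of those tested) and 1 lower (0.0115%) at a Benjamini-Hochberg adjusted p under 0.05. At an unadjusted p under 0.05 there were 566 higher (6.53%) and 473 lower (5.45%). The median log2 difference over all 8671 models was 0.011, with 4431 above 0 and 4240 below. The median standard error was 0.309, larger than the median size of a difference, 0.276. A log2 difference of at least 1 in size was seen in 448 models, 302 of them higher and 146 lower. All log2 differences here are on the log2(FPKM + 1) scale, which understates the difference of genes of low FPKM.

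**Figure D1:**
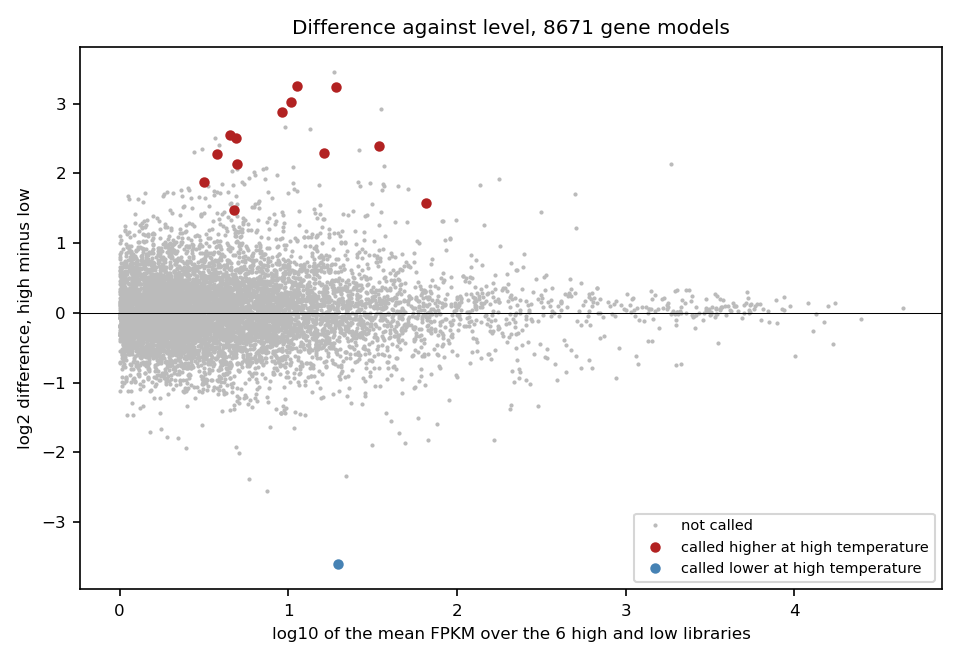
The log2 difference (high minus low) of each of the 8671 gene models is plotted against log10 of its mean FPKM over the 6 libraries, with called models in colour. The 13 models called higher lie between 1.47 and 3.26 and the single model called lower at -3.61. Of abundant models, adductor muscle actin lies at -0.08 and myosin regulatory light chain A at 0.08. A lipocalin-domain gene with a mean of 3038 FPKM at high temperature lies at 2.14 and was not called.

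The count rested on few libraries. Without low temperature replicate 1, 2 or 3 the number called higher was 7, 6 and 5, and the number lower 2, 0 and 1. Without room temperature replicates 1 or 2 the number lower was 2. Without both replicates 3 of the high and low groups 0 were called higher, with 659 at an unadjusted p under 0.05, and 1 lower. Weights that lower the influence of libraries that stand apart raised the counts to 66 higher and 22 lower in limma, and to 136 and 69 in voom on the recovered reads.

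Chaperones of the inducible kind were among the models called higher at high temperature. DnaJ homolog subfamily B member 4 (evm.TU.Contig80.202, contig 80, 4429862 to 4433734, plus strand), a co-chaperone of HSP70, was at 55.3, 65.5 and 55.7 FPKM in the 3 high, 40.7, 30.5 and 32.9 in the 3 room and 9.11, 12.0 and 10.2 in the 3 low temperature libraries. Each group lay wholly above the one colder than it. The high mean was 58.9 ± 5.77 FPKM against 10.4 ± 1.49 at low temperature (SD, n = 3 each), 5.64 times as much. The difference in log2(FPKM + 1) was 2.39 (SE 0.239, limma adjusted p = 0.00483). The room temperature mean was 34.7 ± 5.29 FPKM. Its step from low to room was 1.64 (limma adjusted p = 0.028) and from room to high 0.75 (limma adjusted p = 0.364).

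The match to major heat shock 70 kDa protein Ab (evm.TU.Contig769.21, contig 769, 397960 to 398634, minus strand) is a short model of the inducible HSP70 kind. It was at 7.39, 12.6 and 7.03 FPKM at high, 10.4, 12.3 and 7.12 at room and 0.874, 1.32 and 0.136 at low temperature. High and room libraries overlapped, and all 6 lay above the low ones. The log2 difference from high to low was 2.51 (SE 0.334, limma adjusted p = 0.015), on 264 reads over the high and 24 over the low libraries. The room level was 9.95 ± 2.62 FPKM, as against 9 ± 3.09 at high temperature, and the high minus room difference was -0.15 (SE 0.334).

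A further pair of HSP70 models flank it. On the same strand, 318 bases away, lies evm.TU.Contig769.20 (contig 769, 396686 to 397642), at 2.42, 7.63 and 3.69 FPKM at high and 0.729, 0.619 and 0.192 at low temperature. On the opposite strand, 2053 bases away, lies evm.TU.Contig769.22 (400687 to 402630), at 6.41, 12.8 and 5.17 FPKM at high and 0.607, 1.87 and 0.994 at low temperature. Neither passed the test, with log2 differences of 1.79 and 2.03 (limma adjusted p = 0.0826 for both), though the groups did not overlap. All 3 neighbours had room libraries at or above their high ones in the mean, at 6.31 FPKM for evm.TU.Contig769.20 and 9.38 for evm.TU.Contig769.22. Reads of such similar, adjacent models may not be separable, and both were named after their values were seen.

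The HSP70 B2 match evm.TU.Contig80.193 (contig 80, 4226737 to 4228955, minus strand) lies on the same contig as the DnaJ gene. It was at 5.34, 12.2 and 3.68 FPKM at high, 3.09, 4.44 and 3.55 at room and 0.218, 0.7 and 0.664 at low temperature. The high libraries spread widely and overlapped the room ones, and both sets lay above the low libraries. The log2 difference was 2.28 (SE 0.354, limma adjusted p = 0.0379). Tested models with the same name on contig 177 did not pass (evm.TU.Contig177.28, 0.57, limma adjusted p = 0.661, and evm.TU.Contig177.33, 0.93, limma adjusted p = 0.402).

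Across the family, 20 tested models carried an HSP70 domain. Of these 2 were called higher and 0 lower, where 0.15% and 0.0115% were called over all tested models. Above 0 lay 16 of the 20, and the median was 0.72, where that over all tested models was 0.011. In 7 of the 20 all high libraries lay above all low ones and in 0 below, where over all models the shares were 8.71% higher and 8.38% lower. Another 51 HSP70-domain models of the table's 71 were too low to be tested. The 30 tested DnaJ-domain models had a median of -0.00, with 15 above 0 and 1 called.

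The wider list of 73 heat shock and co-chaperone models had 3 called higher and 0 lower (0.15% and 0.0115% over all tested models), and a median of 0.10. All high libraries lay above all low ones in 14 and below in 7, beside 8.71% and 8.38% over all tested models. Among the members not called was BAG3 (evm.TU.Contig224.18), an HSP70 cofactor that steers clients to autophagy, at 1.34 (limma adjusted p = 0.181). Another was the mitochondrial 10 kDa heat shock protein (evm.TU.Contig1146.25), the lid of the mitochondrial chaperonin, at 0.96 (limma adjusted p = 0.236). A McKusick-Kaufman/Bardet-Biedl putative chaperonin match (evm.TU.Contig256.42) went the other way at -0.93 (limma adjusted p = 0.181). So did a chaperone protein DnaJ match (evm.TU.Contig368.14), graded lower in every library, at -0.80 (limma adjusted p = 0.229). Subunit eta of the cytosolic chaperonin CCT (evm.TU.Contig495.12), which folds actin and tubulin, was also lower at -0.71 (limma adjusted p = 0.245). Its high libraries, at 8.97 to 10.5 FPKM, lay below all low libraries, at 14.9 to 17.4, and all room libraries, at 16.1 to 21.2.

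The most abundant chaperones did not pass. Alpha-crystallin B chain (evm.TU.Contig124.136), a small heat shock protein of muscle, was at 2743, 2345 and 3903 FPKM at high and 5135, 3073 and 3924 at low temperature, overlapping groups at -0.43 on the log2 scale (limma adjusted p = 0.78). The small heat shock protein beta-8 (evm.TU.Contig325.41), a partner of BAG3 in mammals, was at 204, 133 and 172 FPKM at high and 297, 331 and 279 at low temperature. Its groups did not overlap, and stood at -0.85 (limma adjusted p = 0.38). Another tested beta-8 model (evm.TU.Contig119.55) stood at 0.28 (limma adjusted p = 0.764). It had 169 ± 38.6 FPKM at high and 136 ± 8.61 at low temperature, with overlap. The match to DnaJ homolog subfamily B member 5 (evm.TU.Contig280.5) stood at -0.09, with 269.6 ± 97.8 FPKM at high and 278 ± 44.8 at low temperature.

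The chaperone calls differed in how far they rested on single libraries. DnaJ homolog subfamily B member 4 passed in 22 of the 23 alternatives and missed in the fit without both replicates 3 (limma adjusted p = 0.0521). The HSP70 Ab match missed without low temperature replicate 1 (log2 difference 2.58, limma adjusted p = 0.0526) and replicate 3 (2.22, 0.0646), over a range of 0.00879 to 0.0866 for all its alternatives. The HSP70 B2 match missed without each of the low temperature libraries, high temperature replicate 1 or room temperature replicates 1 or 3, with a highest adjusted p of 0.17.

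Transcription factors made up 4 of the 14 calls: early growth response protein 1 and 3 genes with a bZIP domain. Early growth response protein 1 (EGR-1, evm.TU.Contig279.25, contig 279, 851878 to 856576, minus strand), an immediate-early zinc finger factor induced by growth signals and stress in vertebrates, was at 8.19, 10 and 7.10 FPKM at high, 2.84, 3.96 and 5.61 at room and 0.29, 0.59 and 0.97 at low temperature. The 3 groups did not overlap in any library and stood in the order of temperature. The mean FPKM at high temperature was 13.7 times that at low temperature. The difference in log2(FPKM + 1) was 2.55 (SE 0.274, limma adjusted p = 0.00483). The reads behind the 3 groups were 1303, 656 and 84. Its step from low to room was 1.65 (limma adjusted p = 0.056) and from room to high 0.90 (limma adjusted p = 0.358).

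A bZIP gene with no protein name (evm.TU.Contig79.116, contig 79, 2790562 to 2794602, plus strand) was at 14, 21.0 and 22.8 FPKM at high, 8.30, 3.81 and 3.05 at room and 1.44, 1.16 and 1.78 at low temperature. It too was graded in every library. Its log2 difference was 3.02 (SE 0.33, limma adjusted p = 0.00483). Among the 13 models called higher, room temperature lay nearest to the low side here: 40% of the way from the low to the high mean of log2(FPKM + 1). The next bZIP model along the contig, evm.TU.Contig79.114, was at 78.6 ± 29.5 FPKM at high, 112 ± 26.7 at room and 37.2 ± 10 at low temperature (log2 difference 1.03, limma adjusted p = 0.254). The unannotated model on its other side, evm.TU.Contig79.120, was at 285 ± 105, 258 ± 131 and 71.6 ± 13.5 FPKM (1.91, limma adjusted p = 0.143). Both were named after their values were seen.

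The other unnamed bZIP gene (evm.TU.Contig782.15, contig 782, 235578 to 236938, minus strand) was at 34.1, 44.9 and 26.5 FPKM at high, 24.3, 23.9 and 16.1 at room and 1.94, 5.97 and 1.56 at low temperature. All 3 groups were again apart. The log2 difference was 3.24 (SE 0.384, limma adjusted p = 0.00742), with 2.56 of it between low and room temperature (limma adjusted p = 0.0323) and 0.68 between room and high (limma adjusted p = 0.604).

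C/EBP gamma (evm.TU.Contig225.61, contig 225, 1170825 to 1171187, minus strand), a short bZIP protein that pairs with other bZIP factors, showed another pattern. It was at 26.2, 21.8 and 35 FPKM at high, 30.8, 27.7 and 24.8 at room and 4.14, 5.71 and 4.56 at low temperature. Room and high libraries overlapped, and the low ones stood alone. The log2 difference between high and low was 2.29 (SE 0.253, limma adjusted p = 0.00483) and between high and room -0.02 (SE 0.253). On the opposite strand, 2432 bases away, C/EBP beta (evm.TU.Contig225.62) was at 166, 150.1 and 130.3 FPKM at high and 75.4, 109.9 and 98.0 in the low temperature libraries (log2 difference 0.66, limma adjusted p = 0.631). It was named after its values were seen, and its room libraries ran from 74.8 to 307.

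Over the 20 tested models with a bZIP domain the median was 0.12, with 11 above 0, 3 called higher (0.15% over all tested models) and 0 lower. All high libraries lay above all low ones in 6 of the 20 and below in 3, where the shares over all tested models were 8.71% and 8.38%. Members at the other end included ATF-5 (evm.TU.Contig350.35), a stress factor and the most abundant of these genes at 614, 765 and 449.7 FPKM at high against 1035, 1113 and 1286 at low temperature (-0.94, limma adjusted p = 0.305). EGR-1 and all 3 bZIP genes kept their calls when any single library was left out. Without both replicates 3 their limma adjusted p was 0.0521 for EGR-1, 0.0535 for C/EBP gamma and 0.0733 for the 2 unnamed genes, and with no filter on low values it was 0.0634 for evm.TU.Contig782.15.

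**Figure D2:**
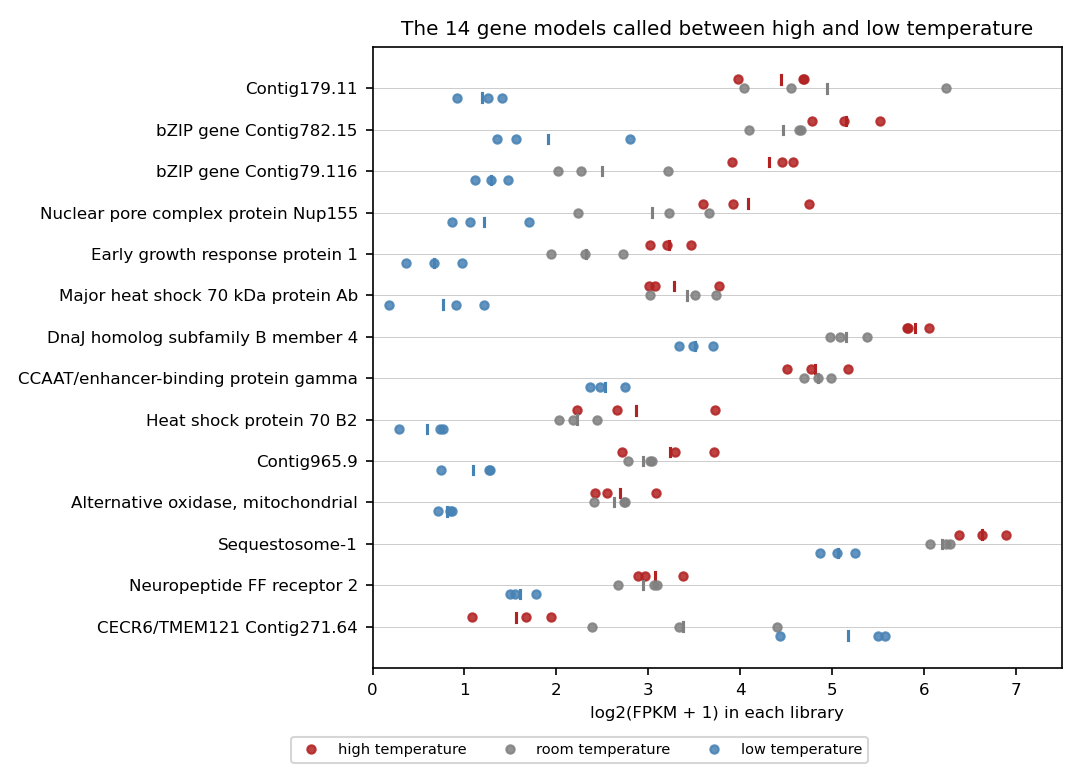
Each row shows log2(FPKM + 1) of a called gene model in the 9 libraries, with a tick at each group mean. High temperature libraries lie above low temperature ones in 13 rows and below them in the CECR6/TMEM121 row, and room temperature libraries lie above the low ones in those 13.

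The other models called higher came from mitochondria, autophagy, the nuclear pore and the cell surface. Alternative oxidase (evm.TU.Contig517.94, contig 517, 1665063 to 1673406, plus strand) passes electrons from ubiquinol straight to oxygen and so bypasses part of the respiratory chain. It was at 4.37, 7.5 and 4.87 FPKM at high, 5.69, 4.31 and 5.66 at room and 0.634, 0.816 and 0.798 at low temperature. High and room libraries overlapped, while every low library was under 1 FPKM. The log2 difference was 1.88 (SE 0.243, limma adjusted p = 0.0141), and high minus room 0.06 (SE 0.243). It did not pass without low temperature replicate 1, 2 or 3 (limma adjusted p = 0.0619, 0.0738 and 0.0629, over a range of 0.00515 to 0.0851).

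Sequestosome-1 (evm.TU.Contig626.26, contig 626, 769902 to 774361, plus strand), the receptor that carries ubiquitin-tagged protein into autophagosomes, was the most abundant of the 14. It was at 82.2, 118 and 97.9 FPKM at high, 76.8, 74.3 and 66.0 at room and 28.3, 32.3 and 36.9 at low temperature, in the order of temperature in every library. The mean was 99.3 ± 17.8 FPKM at high and 32.5 ± 4.29 at low temperature, 3.06 times as much (log2 difference 1.58, SE 0.25, limma adjusted p = 0.0411). Leaving out any 1 of the 9 libraries took this call away, at log2 differences of 1.45 to 1.70 and a limma adjusted p of at most 0.18.

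Nup155, a scaffold protein of the nuclear pore, matched 2 tested gene models with like values. The model evm.TU.Contig323.1 (contig 323, 1822 to 25677, minus strand) was at 14.1, 11.1 and 25.8 FPKM at high, 11.6, 3.71 and 8.38 at room and 2.25, 0.822 and 1.08 at low temperature. It was called at 2.88 (SE 0.414, limma adjusted p = 0.0225). The model evm.TU.Contig549.35 (contig 549, 930060 to 947204, minus strand) was at 20.3, 15.4 and 35.8, 15.4, 4.49 and 14.3, and 3.97, 1.53 and 3.22 FPKM in the same order, at 2.64 (SE 0.461, limma adjusted p = 0.0637). In both, the third high library was the highest and the second low library the lowest. The first carries an N-terminal and the second a C-terminal nucleoporin domain, so they may be parts of the same gene. They may therefore not be independent measurements. Without high temperature replicates 1 or 3 or low temperature replicates 2 or 3 the first model did not pass either (highest limma adjusted p = 0.153). The nuclear pore list of 36 models had a median of -0.07. Matches to Nup93, another scaffold protein, were at -0.59 (evm.TU.Contig472.30, limma adjusted p = 0.352) and -0.06 (evm.TU.Contig0.42, limma adjusted p = 0.95).

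Neuropeptide FF receptor 2 (evm.TU.Contig6.76, contig 6, 1787358 to 1793396, plus strand), a peptide receptor of the rhodopsin-like class, was at 6.38, 9.42 and 6.8 FPKM at high, 7.56, 5.36 and 7.38 at room and 1.82, 1.92 and 2.43 at low temperature. High and room libraries overlapped and the low ones lay below. At 1.47 (SE 0.241) its limma adjusted p of 0.049998 was just inside the threshold. It was lost without any high or low temperature library and without room temperature replicates 1 or 3, with a highest adjusted p of 0.219. The 3 other tested models of that name, on contigs 104, 348 and 500, stood at -0.44, 0.44 and -0.14.

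Of the models called higher, 2 had no annotation. In evm.TU.Contig179.11 (contig 179, 256519 to 269793, plus strand) the values were 14.7, 24.6 and 24.8 FPKM at high, 74.7, 15.4 and 22.4 at room and 0.891, 1.38 and 1.65 at low temperature, 3.26 apart on the log2 scale (SE 0.484, limma adjusted p = 0.0275). In evm.TU.Contig965.9 (contig 965, 311006 to 318134, minus strand) they were 5.56, 12.1 and 8.76, 7.11, 7.25 and 5.84, and 1.42, 1.41 and 0.677 FPKM, 2.14 apart (SE 0.29, limma adjusted p = 0.015). Room libraries overlapped the high ones in both and lay above the low ones. Both calls were lost without high temperature replicate 3 or any low temperature library, and that of evm.TU.Contig179.11 also without high temperature replicate 2 (highest limma adjusted p = 0.16 and 0.133).

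A single model was called lower at high temperature. It carries a CECR6/TMEM121 family domain, shared by membrane proteins of poorly known function (evm.TU.Contig271.64, contig 271, 1591093 to 1595714, plus strand). It was at 2.85, 2.17 and 1.11 FPKM at high, 4.22, 9.09 and 20.1 at room and 20.6, 46.7 and 44.3 at low temperature. The groups were apart in every library, though the highest room library almost reached the lowest cold one. The mean was 2.04 ± 0.877 FPKM at high and 37.2 ± 14.4 at low temperature (log2 difference -3.61, SE 0.491, limma adjusted p = 0.015). Room temperature lay midway, with -1.81 from room to high and -1.80 from low to room as high minus room and room minus low. The call was lost without high temperature replicate 3 (limma adjusted p = 0.0703) and low temperature replicates 2 (0.116) and 3 (0.0925), over a range of 0.00346 to 0.153.

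The question of grading was whether room temperature lay between the extremes. The steps from low to room and from room to high share the room temperature libraries, so they are given side by side and not as independent results. Of the 14 called models, 11 had a room mean between the high and the low mean, and 6 were graded in every library. Over all tested models 36.5% were graded in the mean, and 0.519% in every library. Among the 1482 models (17.1%) whose high and low libraries did not overlap, as all 14 called models did not, 66.9% were graded in the mean. Calls were chosen on the high and low libraries, so their share is read no further.

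Among the 13 higher models, the room mean lay between 40% and 115% of the way from low to high, with a median of 79.1%. All room libraries lay above all low libraries in 13 of 13, while all high libraries lay above all room libraries in 5 of 13. The median over all tested models was -0.00752 for high minus room and 0.01817 for room minus low. By its own test, limma called 0 models higher and 0 lower between high and room temperature (443, 5.11%, and 392, 4.52%, at an unadjusted p under 0.05). Between room and low temperature it called 13 higher (0.15%) and 0 lower (387, 4.46%, and 317, 3.66%, at an unadjusted p under 0.05). A call in 1 step and none in the other does not show that the steps differ. That difference is what the departure of room temperature from the midpoint tests, and 0 of the 14 passed it after adjustment. This does not show that the steps are equal. Their unadjusted limma p ran from 0.000255 (C/EBP gamma, room above the midpoint) to 0.985 (the CECR6/TMEM121 gene).

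**Figure D3:**
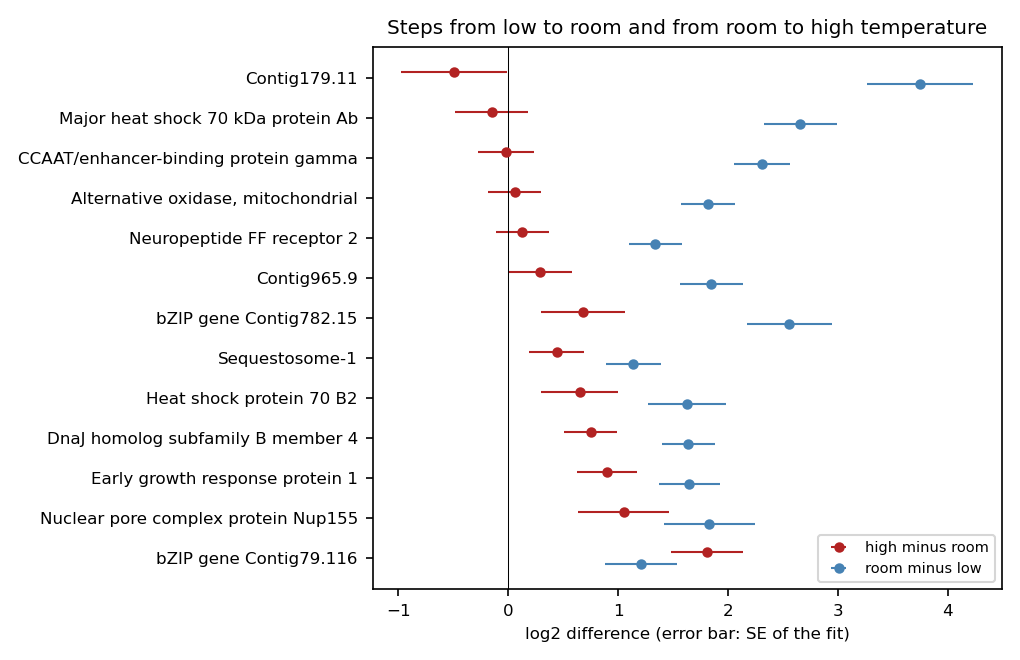
For the 13 models called higher at high temperature, the log2 difference from low to room and from room to high is drawn with the standard error of the fit as its bar. The lower step is the larger in 12 of the 13, the bZIP gene on contig 79 being the exception.

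The midpoint test called 2 gene models of 8671 (0.0231%), both with room temperature above both extremes, and 0 in the other direction. At an unadjusted p under 0.05 there were 350 (4.04%) with room temperature above the midpoint and 352 (4.06%) with it below. Growth/differentiation factor 15 (evm.TU.Contig121.73, contig 121, 1920250 to 1925592, minus strand), a secreted protein of the TGF-beta family, was at 1.55, 2.11 and 3.10 FPKM at high, 18.6, 4.92 and 9.51 at room and 0.0243, 0.0335 and 0.0417 at low temperature. All room libraries lay above all high ones, and these above all low ones, whose 3 libraries held 3 reads in all. The midpoint of the extremes lay at -2.56 from room temperature (SE 0.33, limma adjusted p = 0.0465). Its high minus low difference, 1.63, did not pass (limma adjusted p = 0.143).

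The other was an ADAM-family protease match, mig-17 (evm.TU.Contig7.21, contig 7, 277069 to 283471, plus strand), of a group of secreted proteases that cut matrix proteins. It was at 2.05, 1.39 and 1.62 FPKM at high, 5.84, 4.04 and 6.58 at room and 0.892, 0.542 and 0.674 at low temperature. Room temperature was again highest, with the midpoint at -1.59 (SE 0.207, limma adjusted p = 0.0465). High minus low was 0.65 (limma adjusted p = 0.304). The protease lay outside the naming rule and was chosen after its values were seen. The count of 2 became 0 without high temperature replicates 1 or 2 or any low temperature library, and 1 without high temperature replicate 3 or room temperature replicates 2 or 3.

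Graded order in every library was found in 19 models higher (0.219%) and 26 lower (0.3%) at high temperature. The 19 ran from 0.56 to 3.24 on the log2 scale with a median of 1.40, and the 26 from -3.61 to -0.35 with a median of -0.93. Among them 5 and 1 were called, and 19 and 24 had an unadjusted p under 0.05.

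Higher and graded, beside the called models, were 2 phosphatases that switch off MAP kinases in vertebrates. Dual specificity protein phosphatase 4 (evm.TU.Contig640.21) was at 3.97, 5.77 and 2.64 FPKM at high, 0.914, 1.14 and 2.35 at room and 0.608, 0.498 and 0.536 at low temperature (log2 difference 1.68, limma adjusted p = 0.0637). Dual specificity protein phosphatase 10 (evm.TU.Contig278.3) had means of 14.2, 5.67 and 4.17 FPKM in the same order (1.44, limma adjusted p = 0.14). Room temperature lay near the low side in each, at 37.4% and 25.5% of the way. The same held for transmembrane protein 135 (evm.TU.Contig440.83), a peroxisomal and mitochondrial membrane protein in mammals, with 3.77, 1.10 and 0.766 FPKM (1.41, limma adjusted p = 0.0637), and for serine/threonine-protein phosphatase 1 regulatory subunit 10 (evm.TU.Contig679.61) with 2.42, 0.749 and 0.361 FPKM (1.32, limma adjusted p = 0.0756). Histone H1-delta (evm.TU.Contig728.4), a linker histone, stood nearer the high side with 13.8, 10.7 and 4.76 FPKM (1.40, limma adjusted p = 0.0996).

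Lower and graded, beside the CECR6/TMEM121 gene, was frizzled-7 (evm.TU.Contig885.3), a Wnt receptor, at 0, 0.224 and 0.285 FPKM at high, 1.58, 0.305 and 2.25 at room and 3.50, 2.53 and 2.5 at low temperature (-1.71, limma adjusted p = 0.0826). YTH domain-containing protein 1 (evm.TU.Contig121.88), a nuclear reader of methylated adenosine in RNA, was at 4.25, 4.80 and 3.39, 6.99, 8.10 and 5.44, and 11.7, 11.6 and 9.28 FPKM in the same order (-1.20, limma adjusted p = 0.0826). Its room level lay 49.9% of the way between the extremes. Transmembrane protein 177 (evm.TU.Contig448.19), LanC-like protein 3 (evm.TU.Contig0.101), cyclin-G1 (evm.TU.Contig474.16) and ATG12 (evm.TU.Contig52.99), a ubiquitin-like protein of autophagosome assembly, followed at -1.14, -1.09, -1.01 and -0.96. The most abundant was the unannotated evm.TU.Contig517.87, at means of 177 FPKM at high, 335 at room temperature and 429 in the cold (-1.34, limma adjusted p = 0.162). The other 2 of the 5 greatest differences lower were an ankyrin and SOCS box gene (evm.TU.Contig177.142, -1.39) and a SPRY domain gene (evm.TU.Contig823.27, -1.87). Named here outside the rule, after their values were seen, are dual specificity protein phosphatase 10, histone H1-delta and ATG12.

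**Figure D4:**
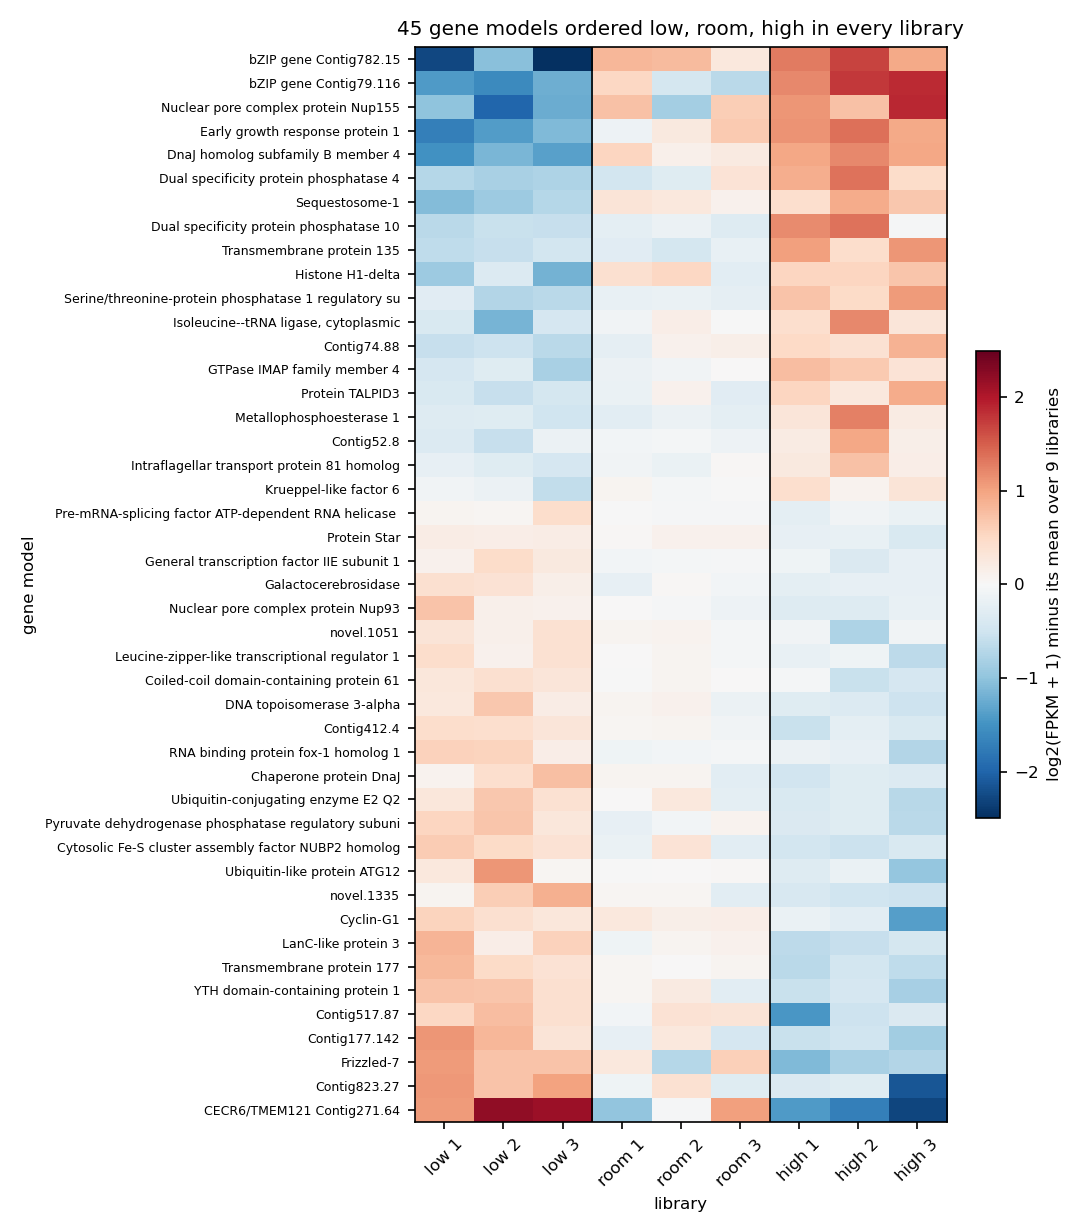
Colour gives log2(FPKM + 1) of each of the 45 models graded in every library, minus its mean over the 9 libraries, with libraries ordered low, room, high. The 19 models at the top run from blue to red and the 26 below from red to blue.

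Of the named models just outside the threshold, several belonged to gene families in which more than 1 member lay on the same side. Runt-domain proteins and their partner, core-binding factor subunit beta, make up 3 tested models. In all 3 the high libraries lay above all low ones (8.71% over all tested models), and the median was 1.57. Runt-related transcription factor 1, which controls blood cell genes in vertebrates and flies, matched evm.TU.Contig1068.49 at 6.76, 6.55 and 7.2 FPKM at high, 11.6, 4.16 and 7.45 at room and 0.68, 2.01 and 1 at low temperature (1.86, limma adjusted p = 0.0732). It also matched evm.TU.Contig1050.8 at 6.06, 7.04 and 5.86, 7.52, 4.87 and 7.54, and 1.57, 2.49 and 2.47 FPKM in that order (1.22, limma adjusted p = 0.09). Core-binding factor subunit beta (evm.TU.Contig225.132), which binds runt proteins and raises their hold on DNA, was at 9.55, 13.7 and 6.84, 5.37, 7.5 and 7.36, and 2.28, 2.97 and 2.59 FPKM (1.57, limma adjusted p = 0.0637). High and room libraries overlapped in all 3. The haemocyte sums given above overlapped between high and low temperature, and their part in these values was not tested.

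Enzymes followed. Cytochrome P450 2H1 (evm.TU.Contig230.31), an oxidase of foreign compounds, was at 7.31, 13.0 and 6.94 FPKM at high and 2.21, 2.35 and 0.834 at low temperature (1.85, limma adjusted p = 0.0637). Hematopoietic prostaglandin D synthase (evm.TU.Contig227.142), a glutathione S-transferase relative, was at 4.44 ± 1.27 and 0.908 ± 0.365 FPKM (1.5, limma adjusted p = 0.0762). Mitochondrial uncoupling protein 3 (evm.TU.Contig124.80), a carrier of the inner membrane, was at 9.38, 11.8 and 15.2 FPKM at high, 4.54, 1.79 and 7.65 at room and 2.04, 3 and 2.27 at low temperature (1.92, limma adjusted p = 0.0826). Phosphoserine aminotransferase (evm.TU.Contig1410.7), an enzyme of serine synthesis, was at 101, 57.6 and 53.4 FPKM at high, with room (9.13 to 23.8) and low libraries (15.3 to 24.4) overlapping (1.82, limma adjusted p = 0.0919). Pre-mRNA-processing factor 40 homolog A (evm.TU.Contig157336.1), a splicing factor, was at 3.74 ± 1.60 FPKM at high, 2.10 ± 0.664 at room temperature and 0.411 ± 0.338 in the cold (1.72, limma adjusted p = 0.0637). In abundance a gene with a lipocalin domain (evm.TU.Contig1023.9), a fold that carries small lipids, came first at 3038 ± 1209 FPKM at high, 2513 ± 451 at room temperature and 672 ± 178 in the cold (2.14, limma adjusted p = 0.0637). The greatest difference in the higher direction lay in the unannotated evm.TU.Contig257.11, at 7.54, 23.3 and 76.6 FPKM at high, 186, 91.3 and 79.0 at room and 1.09, 1.57 and 1.24 at low temperature (3.46, limma adjusted p = 0.0756). Its high libraries spread widely, below the room ones and above the low ones. The uncoupling protein, lipocalin and last-named genes were named after their values were seen.

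In the lower direction, FUN14 domain-containing protein 1 (evm.TU.Contig1450.13), a mitophagy receptor of the outer mitochondrial membrane, was at 18.9, 16 and 11.6 FPKM at high, 36.6, 55.3 and 38.4 at room and 45.2, 34.0 and 39.3 at low temperature. Here the high libraries stood alone and room and low overlapped (-1.31, limma adjusted p = 0.0996). Peroxiredoxin-6 (evm.TU.Contig140.63), an antioxidant enzyme, had the same shape with 3.17 ± 1.16, 9.07 ± 3.20 and 8.74 ± 0.998 FPKM (-1.26, limma adjusted p = 0.143). Atypical kinase COQ8A (evm.TU.Contig6.254), needed for ubiquinone synthesis, was at 1.27 ± 0.28, 3.74 ± 1.30 and 4.30 ± 0.944 FPKM (-1.22, limma adjusted p = 0.112). Inositol oxygenase (evm.TU.Contig108.71), which breaks down myo-inositol, was at 1.55 ± 1.14, 3.92 ± 1.55 and 8.62 ± 2.69 FPKM (-2.0, limma adjusted p = 0.0826). Beta-1,3-galactosyltransferase brn (evm.TU.Contig1226.6), an enzyme that adds galactose to glycans, was at 3.31 ± 0.822, 8.36 ± 4.58 and 12.2 ± 1.10 FPKM (-1.63, limma adjusted p = 0.0826). Headcase protein (evm.TU.Contig429.58) was at 29.5 ± 5.08, 48.9 ± 18.2 and 87.7 ± 26.9 FPKM (-1.51, limma adjusted p = 0.112). Magnesium-dependent phosphatase 1 (evm.TU.Contig355.55) was at 20.3 ± 6.06, 39.8 ± 7.38 and 61.2 ± 13.5 FPKM (-1.56, limma adjusted p = 0.079).

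Gene lists were taken from words in the protein names and are described by counts and medians beside those of all tested models. No list other than heat shock (3) and bZIP and immediate-early factors (2) held more than 1 called model. The 30 models for endoplasmic reticulum folding and stress had 21 above 0, 0 called and a median of 0.19. All 3 high libraries lay above all 3 low ones in 5 of them and below in 0, where the shares over all tested models were 8.71% and 8.38%. The leading member was GRP78 (evm.TU.Contig141.23), the HSP70 of the endoplasmic reticulum, at 33.4, 90.2 and 52.9 FPKM at high, 31.0, 35.2 and 32.1 at room and 13.5, 12.4 and 17.6 at low temperature (1.85, limma adjusted p = 0.0732). Protein disulfide-isomerase A4 (evm.TU.Contig1116.28) was at 1.20 (limma adjusted p = 0.14) and hypoxia up-regulated protein 1 (evm.TU.Contig280.4), an HSP70 relative of the same compartment, at 1.08 (0.193). In the last of these and in GRP78 the second high library was the highest of the 9.

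Downstream of folding, the 37 proteasome models had a median of 0.07 and 193 ubiquitin conjugation and ligation models one of -0.02, with 0 called in each. In the 54 autophagy and lysosome models the median was 0.11, and sequestosome-1 was the called member.

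The aminoacyl-tRNA ligases, which load amino acids onto tRNA, had 21 of 30 models above 0 and a median of 0.24, with 0 called. All high libraries lay above all low ones in 9 of the 30 and below in 0, beside 8.71% and 8.38% over all tested models. Cytosolic isoleucine-tRNA ligase (evm.TU.Contig124.55) led at 3.20, 6.18 and 2.90 FPKM at high, 1.94, 2.51 and 2.10 at room and 1.41, 0.401 and 1.35 at low temperature (1.30, limma adjusted p = 0.143). Adjacent models of cytosolic serine-tRNA ligase (evm.TU.Contig686.24 and evm.TU.Contig686.25) stood at 0.97 and 0.95. They carry its core and its N-terminal domain, in that order, and may be parts of the same gene. The list counts them as separate models. The list's median kept its sign in every alternative in which lists were described (0.18 to 0.58). Cytosolic ribosomal proteins had a median of 0.06 over 79 models, of which none had groups that did not overlap. Mitochondrial ribosomal proteins had a median of 0.23 over 57, with high libraries above all low ones in 5 and below in 7. These counts, too, stand beside 8.71% and 8.38% over all tested models. Without high temperature replicate 3 the cytosolic ribosomal median was -0.34 and the mitochondrial one 0.06.

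In energy metabolism the 28 models of glycolysis, glycogen and phosphagen had a median of -0.27, with 20 below 0 and 0 called. The other 8 lay above 0. Among these was hexokinase-2 (evm.TU.Contig1525.51), the entry step of glycolysis. It was at 10.1, 13.2 and 13.6 FPKM at high, 23.1, 13.0 and 14.3 at room and 4.74, 4.64 and 6.94 at low temperature (1.05, limma adjusted p = 0.181). A match to octopine dehydrogenase (evm.TU.Contig80.97), which ends anaerobic glycolysis in molluscs in place of lactate dehydrogenase, also lay above 0. Its libraries ran from 17.8 to 21.9 FPKM at high, 20.2 to 40.1 at room and 7.45 to 11.9 at low temperature (0.88, limma adjusted p = 0.286). Another match to that enzyme, evm.TU.Contig176.77, stood on the other side of 0, at -0.36 (limma adjusted p = 0.857). Its means were 16.5 (high), 23.7 (room) and 18.5 FPKM (low), and the warm and cold libraries overlapped. A phosphoglycerate kinase match (evm.TU.Contig1331.3) lay at -1.22 (limma adjusted p = 0.263). Arginine kinase (evm.TU.Contig352.50), which buffers ATP in molluscan muscle, was at 8738, 10111 and 25285 FPKM at high and 10808, 27339 and 19096 at low temperature, with overlap (-0.45, limma adjusted p = 0.78). Oxidative phosphorylation (42 models, median 0.16) held alternative oxidase as its called member, and its median turned to -0.24 without high temperature replicate 3. The list of glycolysis words also took in enolase-phosphatase E1, an enzyme of methionine salvage.

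The hypoxia response list had 6 models, 5 above 0, with a median of 0.58. Its called member was alternative oxidase, at 1.88, which is on the oxidative phosphorylation list too. Hypoxia-inducible factor 1-alpha (evm.TU.Contig284.70), the oxygen-regulated transcription factor, and the proteins that mark or hold it, an EGLN1 prolyl hydroxylase match (evm.TU.Contig132.56), von Hippel-Lindau protein (evm.TU.Contig275.41) and the factor's inhibitor (evm.TU.Contig104.156), stood at 0.43, 0.61, 0.59 and 0.57. High and low libraries overlapped in all 4, and none passed (limma adjusted p from 0.536 to 0.695). All 4 had their highest mean of log2 values at room temperature. FUN14 domain-containing protein 1 was the member below 0, and is on the autophagy list too.

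All 6 circadian clock models lay below 0, at a median of -0.79 where all tested models had 0.011. Cryptochrome-1 (evm.TU.Contig322.72), a repressor or light sensor of the clock in animals, was at 35.4, 24.7 and 25.8 FPKM at high, 50, 100.2 and 23.7 at room and 78.4, 147 and 92.9 at low temperature (-1.82, limma adjusted p = 0.168). The period protein (evm.TU.Contig1815.2), a core repressor, was at 10.4, 10 and 4.71 FPKM at high, 11.1, 12.5 and 6.71 at room and 19.0, 16.3 and 14.5 at low temperature (-0.97, limma adjusted p = 0.279). High libraries lay below low ones in these and in hepatic leukemia factor (evm.TU.Contig283.37, -0.95), a bZIP factor of the clock output in mammals. Over all tested models that held for 8.38%. Timeless (evm.TU.Contig144.45) and cryptochrome DASH (evm.TU.Contig79.58) were at -0.21 and -0.01. None was called, and the hour of sampling is not in the labels.

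None of the 36 contractile models passed the test. They had a median of 0.01, with 18 above and 18 below 0. The median was -0.23 without high temperature replicate 3, and had the other sign in 7 of 17 alternatives. Myosin regulatory light chain A (evm.TU.Contig1462.6) was at 31214, 30683 and 78735 FPKM at high and 29855, 53789.8 and 39999 at low temperature (0.08, limma adjusted p = 0.971). Adductor muscle actin (evm.TU.Contig251.4) was at 12877, 16854 and 46141 FPKM at high and 13527, 29143 and 30100.3 at low temperature (-0.08, limma adjusted p = 0.975). In both, the third high library was by far the highest. Zasp (evm.TU.Contig118.141), a Z-disc protein, was the member of the list whose groups did not overlap, at 24.7 ± 4.01 and 44.4 ± 12.1 FPKM (-0.80, limma adjusted p = 0.416). Calcium handling had 25 of 35 models below 0 and a median of -0.22, led by a calmodulin match (evm.TU.Contig131.13) at 65.3 ± 12.1 FPKM in the high and 101 ± 14.3 in the low temperature libraries (-0.63, limma adjusted p = 0.369).

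**Figure D5:**
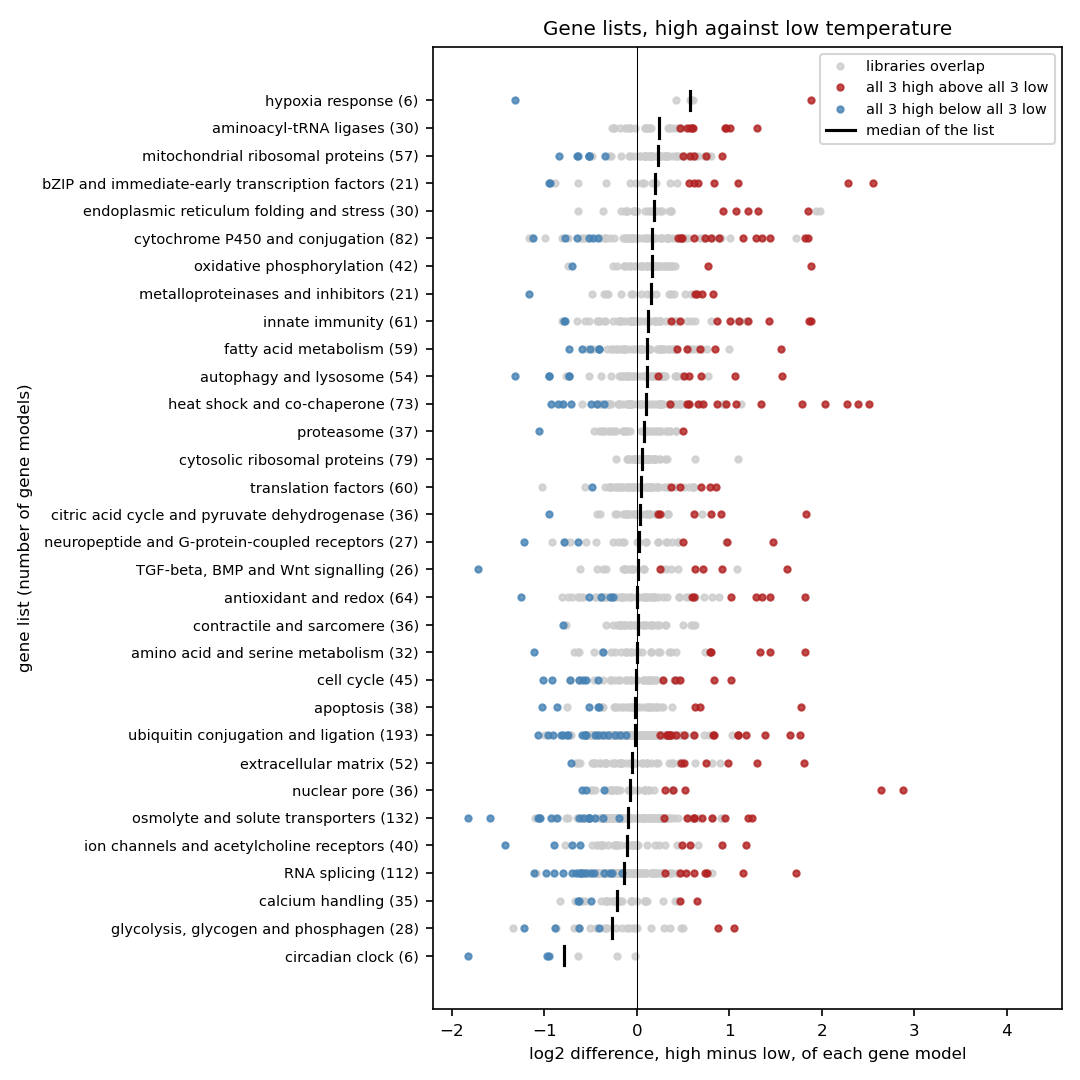
Each point is the log2 difference (high minus low) of a member of a gene list, coloured where its high and low libraries do not overlap, with a bar at the list's median. Medians run from -0.79 for circadian clock genes to 0.58 for hypoxia response genes, both lists of 6 models.

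None of the transporter, channel or splicing models was called. The 132 osmolyte and solute transporters had 75 below 0 and a median of -0.09. Solute carrier family 25 member 38-B (evm.TU.Contig247.79), a mitochondrial glycine carrier, was at 89.1, 75.2 and 53.0 FPKM at high, 37.7, 62.2 and 159 at room and 288, 180.2 and 312 at low temperature (-1.82, limma adjusted p = 0.181). A glycine transporter of the plasma membrane (evm.TU.Contig133.71) was at 55.6, 34.1 and 25.4 FPKM at high and 149.9, 98.2 and 94.1 at low temperature (-1.59, limma adjusted p = 0.15). Among 40 ion channel and acetylcholine receptor models, 28 lay below 0 at a median of -0.10, which ran from -0.25 to 0.01 over the alternatives. High and low libraries did not overlap in 4 of these 40 in each direction, beside 8.71% higher and 8.38% lower over all tested models. A glycine receptor subunit alpha-3 match (evm.TU.Contig626.20), a chloride channel opened by glycine, was at -1.43 (limma adjusted p = 0.232). In RNA splicing 75 of 112 models lay below 0, at a median of -0.14.

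Among the remaining lists with 0 called, cytochrome P450 and conjugation had a median of 0.17 over 82 models, metalloproteinases 0.15 over 21, innate immunity 0.12 over 61, fatty acid metabolism 0.11 over 59, translation factors 0.04 over 60 and the citric acid cycle 0.04 over 36. Without high temperature replicate 3 these last medians were -0.12 and -0.23. Innate immunity had high libraries above low ones in 9 of its 61 models and below in 2, beside 8.71% and 8.38% over all tested models. Its leading member was macrophage-expressed gene 1 (evm.TU.Contig227.49), a pore-forming protein that kills bacteria, at 24.5, 19.6 and 20 FPKM at high, 5.71 to 10.7 at room and 6.25 to 9.43 at low temperature (1.44, limma adjusted p = 0.0826). TGF-beta, BMP and Wnt signalling (26 models), antioxidant (64), amino acid (32), cell cycle (45), apoptosis (38) and extracellular matrix (52) lists had medians of 0.02, 0.01, 0.00, -0.01, -0.02 and -0.05, all of which changed sign in some alternative. On the ubiquitin list, E3 ubiquitin-protein ligase XIAP (evm.TU.Contig646.21), an inhibitor of caspases, was at 5.33, 6.36 and 2.08 FPKM at high and 0.552, 0.169 and 1 at low temperature (1.77, limma adjusted p = 0.0826). The receptor list (27 models, median 0.03) held neuropeptide FF receptor 2 as its called member.

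Some of the list members of lowest p, none of them called, showed where room temperature lay. Ubiquitin-conjugating enzyme E2 H (evm.TU.Contig1352.10), which passes ubiquitin to target proteins, was at 18.3 ± 2.10 FPKM at high, 19.4 ± 1.39 at room temperature and 8.03 ± 0.823 in the cold (1.09, limma adjusted p = 0.0904). Programmed cell death protein 4 (evm.TU.Contig220.95), an inhibitor of translation in mammals, was at 178 ± 28.7, 250.4 ± 66.1 and 362 ± 38.3 FPKM in the order high, room, low (-1.03, limma adjusted p = 0.201). Tolloid-like protein 2 (evm.TU.Contig117.88), a protease that cuts matrix and BMP-binding proteins in vertebrates, was at 2.19 ± 0.298, 2.77 ± 1.28 and 6.17 ± 0.873 FPKM (-1.16, limma adjusted p = 0.14). Cytochrome c (evm.TU.Contig228.83), the electron carrier between respiratory complexes, was at 88.9 ± 18.8, 98.8 ± 8.71 and 52.9 ± 16.8 FPKM (0.77, limma adjusted p = 0.346). Matrix metalloproteinase-20 (evm.TU.Contig410.40) was lowest at room temperature, with 8.12 ± 2.20, 1.61 ± 0.326 and 4.13 ± 1.18 FPKM (0.82, limma adjusted p = 0.257). Room libraries overlapped the high ones in all of these but matrix metalloproteinase-20.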

How the data were processed

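RNA of adductor muscle was sequenced in 9 libraries, 3 each at high, low and room temperature. HISAT2 2.0.4 and HTSeq 0.9.1 are listed among tools, per the submitters' processing notes. Genome build, annotation and strandedness were not given in the sources used. The authors deposited FPKM per gene model, per the file headers, with each model's contig, position, protein match and Pfam domains. FPKM times gene length and a divisor found for each library gave whole reads (largest distance 3.66e-08 read), so reads could be recovered. That divisor was not the total of assigned reads.

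Values were tested as log2(FPKM + 1), with a pseudocount of 1, by limma 3.58.1 in R 4.3.3: group means of all 9 libraries, eBayes with a trend and 6 residual degrees of freedom. Tests covered the 8671 gene models with a mean of at least 1 FPKM over the 6 high and low libraries, with Benjamini-Hochberg adjustment over all of them for each of 4 contrasts (high minus low, high minus room, room minus low, midpoint of high and low minus room). An adjusted p under 0.05 was called. The script was tested on simulated data.

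Members and gene lists were chosen with earlier results of these data known. Named are all called models. To these were added the 10 uncalled named proteins of lowest p without overlap in each direction, the 2 of lowest p in each list and the 2 most abundant of 4 lists. The 5 greatest differences in each direction among models graded in every library complete the rule. Not all models the rule takes are printed. Outside it, and chosen after their values were seen, are neighbours and namesakes of called models, the protease called in the midpoint test, large uncalled differences, and further members of the chaperone, bZIP, nuclear pore, aminoacyl-tRNA ligase, endoplasmic reticulum, hypoxia, glycolysis, clock and graded sets, such as BAG3, the chaperonin subunits, HSPB8, ATF-5, Nup93, octopine dehydrogenase, period and hypoxia-inducible factor. Of the models tested, 5755 had a protein name, 731 a Pfam domain only and 2185 neither. A RefSeq table matched 0 identifiers, and sequences are not used here. Alternatives were other pseudocounts, filters, scalings and variance settings, voom on the recovered reads, a replicate block and leaving out libraries. Figures were drawn with matplotlib 3.10.9.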

Additional observations from a re-analysis of the deposited data

How the results depend on the processing

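The direction of each of the 14 called gene models was the same in every alternative that tested it, and 86 of 316 combinations of a called model and an alternative lost the call. The count of models higher at high temperature, 13, was 4 with no filter on low values (22213 tested), 66 with array weights and 136 with quality weights in voom. It was 0 without replicates 3 of the high and low groups together, and ran from 5 to 17 when single libraries were left out. The count lower, 1, was 0 with no filter, 22 with array weights and 69 with quality weights, and ran from 0 to 2 over single libraries. The midpoint count, 2, was 1 with a pseudocount of 0.1 and with a minimum of 5 FPKM. It was 4 with array weights and with quality weights in voom, and 0 with no filter, upper quartile scaling, voom on recovered reads or without both replicates 3. Over single libraries it ran from 0 to 2. The cause was not tested, beyond fewer libraries or more tests in those fits. Of 129 named models not called, 54 gained a call in some alternative. Other scalings moved the median of all models to between -0.0332 and 0.0256. With each library's own total of reads as divisor, 9 models were called higher and 1 lower, and 8 of the 14 were still called. The own total of reads as divisor put 427 models above and 194 below 0 with an unadjusted p under 0.05, upper quartile scaling 502 and 564, and quantile normalization 543 and 603, where the deposited scale gave 566 and 473. Of 38 list medians, 21 changed sign in some alternative. Those of the heat shock, bZIP, aminoacyl-tRNA ligase, glycolysis, calcium, splicing, transporter, hypoxia and circadian lists did not.

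High and low libraries share replicate numbers. Deviations of same-numbered libraries from their group means correlated at r = 0.2363, -0.1033 and 0.0564 across gene models. Those of libraries with unlike numbers correlated at -0.1676 to 0.1194. With so few libraries a group, these values cannot decide whether the numbers pair the samples. With the replicate number as a block, 15 models were higher and 3 lower, 11 of the 14 were still called and the midpoint count was 0.

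With 3 libraries a group and a median standard error of 0.309, small differences could not be detected, and 8 of the 13 models called higher had a low temperature mean under 2 FPKM. Of the 8671 models, 1121 lie outside the table's main gene set. Word patterns also took stray members, such as spermine oxidase among gonad markers.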
